A study of Sus scrofa with 15 samples.

Results

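Fibronectin and the genes that build, coat and cross-link fibrillar collagen were followed in pig granulosa cells over 7 days of culture. The set held 10 genes, namely FN1, THBS1, SPARC, COL1A2, COL3A1, COL11A1, DCN, LUM, LOX and LOXL4, of 6765 genes that the array annotation names. Each gene was read from the probe sets that carry its symbol alone, and the probe set with the highest mean over the 15 arrays stood for it. All 10 genes were measured, by 24 probe sets together.

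Connective tissue is usually laid down in steps. Cells first assemble a provisional matrix of fibronectin and other adhesive glycoproteins, which integrins at the cell surface stretch into fibrils, and fibrillar collagens are then deposited on it. Small leucine-rich proteoglycans such as decorin and lumican bind collagen fibrils and regulate their width and spacing, and lysyl oxidases oxidise lysines of collagen and elastin so that the fibres become cross-linked. Granulosa cells are the epithelium-like cells that surround the oocyte inside the ovarian follicle, make oestradiol and inhibin, and sit on a basement membrane that keeps them apart from the collagen-rich theca and stroma.

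The groups were freshly isolated follicular granulosa cells (day 0), the same kind of cells at days 1, 2 and 4 of dedifferentiation in culture, and the semiconfluent dedifferentiated cells of day 7, which the submitters call DFOG. There were 3 biological replicate arrays for each of the 5 days, all of total RNA on the Affymetrix porcine genome array. The labels used here give no breed, age, number of animals, culture medium or substrate, and there was no group kept undifferentiated in culture, so time in culture and dedifferentiation cannot be told apart. Nothing in the labels says that the replicates came from separate animals, and the p values below measure the spread between these arrays.

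Values are log2 RMA intensities, on which 1 unit is a factor of 2. The array medians were 6.40 to 6.55, and the lower quartile of an array was 4.41 to 4.68, below which a signal is called dim here. Arrays of the same day correlated at 0.963 to 0.996. The 5 arrays numbered replicate 1 stood apart from the other 10 on the third principal component (29.4 to 48.1 against -41.4 to -5.78), which held 13.1% of the variance. Their actin control also had a smaller difference between its 3′ and 5′ probe sets, 0.02 to 0.19 on days 1 to 7, against 0.57 to 2.12 in replicates 2 and 3, and values from replicates 2 and 3 alone are given where replicate 1 lies far from them. On day 4 replicate 2, this difference was 2.12 for actin and 3.52 for the dap control, the highest of the 15 arrays. The freshly isolated cells also had large differences, with day 0 arrays spanning 0.97 to 1.68 for actin and 1.72 to 1.77 for dap. Day 7 arrays lay lower in both controls (0.19 to 0.59 for actin, 1.25 to 1.45 for dap), while the actin range of day 1 (0.18 to 1.01) overlapped that of day 0. For dap, the ranges of day 1 (1.47 to 1.63) and day 2 (1.26 to 1.50) lay below that of day 0. Whether this shift in the controls has a part in the changes from day 0 was not tested. These are bulk samples, in which fewer cells of a type and less RNA per cell cannot be told apart.

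In the limma fit over all 15 arrays, calls needed an adjusted p (Benjamini-Hochberg, over 23999 probe sets) under 0.05 and a log2 change of at least 1 in size. Against day 0, 3 of the 10 genes were called higher on day 1, where 6.47% of all probe sets were. The count was 5 on day 2, against 7.68% of all probe sets, 7 on day 4, against 9.29%, and 9 on day 7, against 9.36%. These shares are not of like kind. The brightest probe set stood for each member, and most arrays are of cultured days, so the choice favours probe sets that rise in culture. The genes themselves were chosen with earlier results of these data known. The counts therefore describe these genes and do not test whether matrix genes rise more than others. Of all 24 member probe sets, 6 were called higher on day 1 and 15 on day 7. LOXL4 was called lower on day 2, where 6.09% of probe sets were, and limma called no member lower on day 7, by the adjusted or by the unadjusted p. The median change of the 10 genes was 0.34 on day 1, 1.29 on day 2, 2.90 on day 4 and 3.97 on day 7, while the median of all probe sets lay between -0.06 and 0 on these days.

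**Figure D1:**
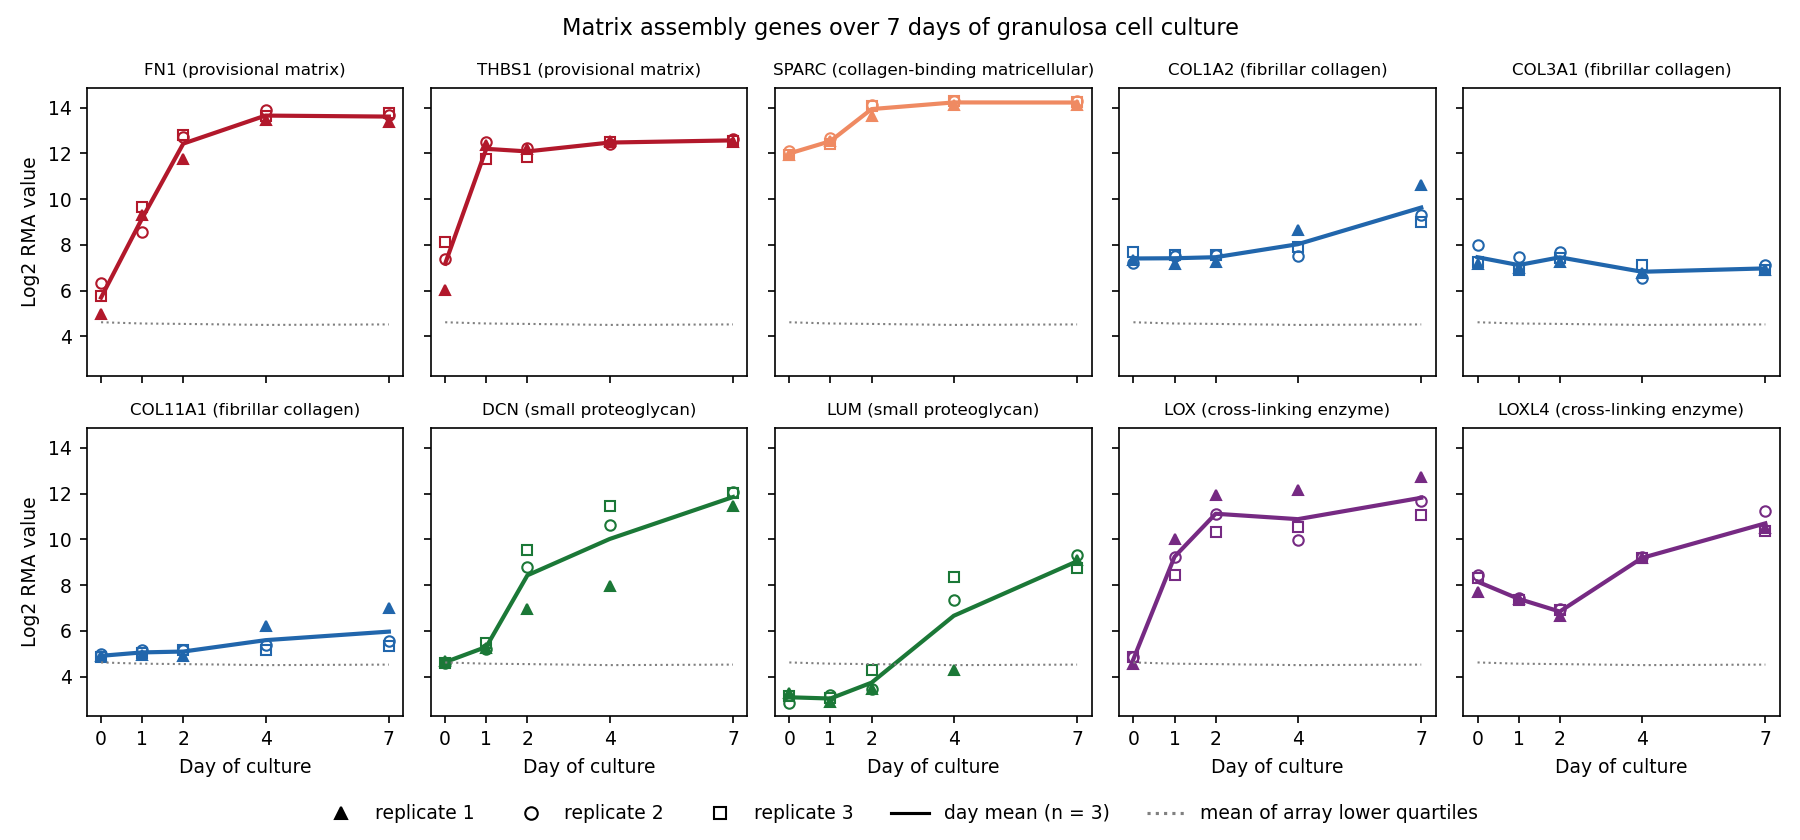
Log2 RMA intensity of each of the 10 genes (vertical axis) on days 0, 1, 2, 4 and 7 of culture (horizontal axis). Triangles, circles and squares are replicates 1, 2 and 3, the line joins the day means (n = 3) and the dotted line is the mean lower quartile of the arrays. FN1, THBS1 and LOX were first called higher on day 1, DCN on day 2, LUM on day 4 and COL1A2 on day 7. The day 1 arrays of SPARC and DCN also lay above their day 0 arrays, without a call. DCN and LUM had a wide spread on day 4, and COL3A1 stayed between 6.58 and 7.98.

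FN1, which encodes fibronectin, was low on day 0 and near the top of the array range by day 4. It read 4.98, 6.34 and 5.78 on the day 0 arrays, 9.30, 8.56 and 9.64 on day 1, 11.76, 12.74 and 12.80 on day 2, 13.45, 13.91 and 13.62 on day 4, and 13.38, 13.70 and 13.76 on day 7. The arrays of days 0, 1, 2 and 4 did not overlap between successive days, while those of days 4 and 7 did. FN1 was 3.47 ± 0.36 (SE) higher on day 1 than on day 0, an 11.1-fold rise (limma adjusted p = 1.10e-05), and another 3.27 ± 0.36 higher on day 2 than on day 1 (adjusted p = 2.16e-04). The step from day 2 to day 4 was 1.22 ± 0.36 and missed the threshold (adjusted p = 0.0815), but passed it with replicate number as a block (adjusted p = 0.0275) and without day 0 replicate 1 (adjusted p = 0.0437). By day 7 FN1 stood 7.91 ± 0.36 above day 0, a factor of 241 (adjusted p = 3.27e-09), and the change from day 4 to day 7 was -0.04 ± 0.36.

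THBS1 encodes thrombospondin 1, a secreted glycoprotein of the provisional matrix that binds fibronectin, fibrinogen and cell surface receptors and can activate latent TGF-beta. Its signal was 6.02, 7.39 and 8.15 on day 0, 12.37, 12.49 and 11.75 on day 1, 12.19, 12.24 and 11.84 on day 2, 12.53, 12.39 and 12.51 on day 4, and 12.52, 12.65 and 12.55 on day 7. Every array of a cultured day lay above every day 0 array, and the range of day 1 overlapped those of days 2 and 4, while days 2 and 4 did not overlap, nor did days 1 and 7. The day 1 rise was 5.02 ± 0.38, or 32.4-fold (limma adjusted p = 8.42e-07), and day 7 stood 5.39 ± 0.38 above day 0. Between day 1 and day 7 the change in this probe set was 0.37 ± 0.38 (adjusted p = 0.597). Other THBS1 probe sets did not show the same plateau. All 5 were called higher on day 7 than on day 0, and the 4 not used here all averaged higher on day 7 than on day 1. In 2 of them this rise was 2.57 ± 0.33 and 1.42 ± 0.40 (adjusted p = 9.15e-05 and 0.0244). The other 2 averaged 12.90 on day 7 against 11.41 on day 1, and 9.87 against 7.74. Their arrays were more spread on day 1, with SDs of 1.28 and 1.59.

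SPARC encodes osteonectin, a collagen-binding matricellular protein that also acts as a chaperone for procollagen. It was already bright on day 0, at 11.94, 12.11 and 11.95, and read 12.54, 12.68 and 12.40 on day 1, 13.62, 14.11 and 14.09 on day 2, 14.10, 14.31 and 14.29 on day 4, and 14.12, 14.31 and 14.26 on day 7. Its 3 arrays lay close together on every day, and those of days 0, 1 and 2 did not overlap. The day 1 difference of 0.54 ± 0.15 had an adjusted p of 0.0149 in limma but was under the minimum change. Day 2 was 1.94 ± 0.15 above day 0, or 3.84-fold (adjusted p = 4.68e-07), of which 1.40 ± 0.15 came after day 1 (adjusted p = 1.57e-04). The day 7 rise of 2.23 ± 0.15 was 4.68-fold (adjusted p = 7.50e-08).

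The fibrillar collagens behaved differently from each other. COL1A2, the second chain of type I collagen, read 7.35, 7.20 and 7.68 on day 0, 7.18, 7.51 and 7.57 on day 1, 7.25, 7.58 and 7.57 on day 2, 8.65, 7.52 and 7.92 on day 4, and 10.60, 9.30 and 9.005 on day 7. The first 3 sampled days overlapped, and on day 7 each array lay above all earlier arrays, with replicate 1 the highest on days 4 and 7. Changes from day 0 were 0.01 ± 0.36 on day 1, 0.06 ± 0.36 on day 2 and 0.62 ± 0.36 on day 4 (limma adjusted p = 0.213 for day 4), and 2.23 ± 0.36 on day 7, a 4.68-fold rise (adjusted p = 2.64e-04). The direct step from day 4 to day 7, 1.60 ± 0.36, did not pass the threshold (adjusted p = 0.246), in a comparison where only 0.0458% of probe sets were called higher. With replicates 2 and 3 alone that step was 1.43 and was called (adjusted p = 0.0224), and the day 7 rise over day 0 was 1.71.

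COL3A1, the chain of type III collagen that accompanies type I in soft connective tissue, was the only member that was never called. It read 7.17, 7.98 and 7.24 on day 0, 7.01, 7.46 and 6.89 on day 1, 7.26, 7.70 and 7.42 on day 2, 6.76, 6.58 and 7.15 on day 4, and 6.90, 7.11 and 6.92 on day 7. The arrays of days 4 and 7 lay below those of day 0 without overlap, while days 1 and 2 overlapped with day 0. The day 7 difference from day 0 was -0.49 ± 0.23 (limma adjusted p = 0.131) and the day 4 difference -0.63 ± 0.23 (adjusted p = 0.0512). The moderated F test over all days gave an adjusted p of 0.119. Of all probe sets, 23.6% had an adjusted p under 0.05 in this test and day means at least 1 apart. A single probe set carries its name.

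COL11A1, a chain of type XI collagen, which nucleates thin fibrils, was near the dim range at the start and read 4.89, 4.97 and 4.87 on day 0, 4.96, 5.19 and 5.03 on day 1, 4.92, 5.19 and 5.19 on day 2, 6.21, 5.39 and 5.19 on day 4, and 7.00, 5.57 and 5.35 on day 7. Replicate 1 was the highest on days 4 and 7, by 0.92 and 1.54 over the mean of replicates 2 and 3. The day 7 rise was 1.06 ± 0.35, or 2.08-fold (limma adjusted p = 0.0329), and its F test did not pass (adjusted p = 0.109). Without day 7 replicate 1 the day 7 change was 0.54 and was not called (adjusted p = 0.123). The call was also lost without any single day 0 array (adjusted p = 0.0666 to 0.0811).

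Both small proteoglycans started near or below the dim limit and ended high. DCN, which encodes decorin, read 4.69, 4.60 and 4.61 on day 0, 5.25, 5.20 and 5.46 on day 1, 6.95, 8.81 and 9.54 on day 2, 7.97, 10.63 and 11.46 on day 4, and 11.45, 12.08 and 12.04 on day 7. The day 1 arrays all lay above the day 0 arrays, yet the difference of 0.67 ± 0.73 was not called (limma adjusted p = 0.597). On days 2 and 4 replicate 1 was the lowest, by 2.23 and 3.08 under the mean of replicates 2 and 3, and on day 7 by 0.61. Day 2 stood 3.80 ± 0.73 above day 0, or 13.9-fold (adjusted p = 0.00139), day 4 stood 5.38 ± 0.73 above it, and day 7 stood 7.22 ± 0.73 above it, a factor of 149 (adjusted p = 4.13e-06). With replicates 2 and 3 alone the rises were 4.57 on day 2, or 23.8-fold, 6.44 on day 4, or 86.9-fold against 41.8-fold with all arrays, and 7.45 on day 7. All these folds are measured against a day 0 level near background. The step from day 1 to day 2 was 3.13 ± 0.73 (adjusted p = 0.0215). It was lost without day 1 replicate 1, 2 or 3 or day 2 replicate 2 or 3, at adjusted p = 0.0533 to 0.112. The step from day 2 to day 4, 1.59 ± 0.73, was not called (adjusted p = 0.355), but was called without day 4 replicate 1 (2.61, adjusted p = 0.0198) and with replicates 2 and 3 alone (1.87, adjusted p = 0.003).

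LUM, which encodes lumican, read 3.30, 2.86 and 3.14 on day 0, 2.89, 3.18 and 3.06 on day 1, 3.46, 3.47 and 4.28 on day 2, 4.29, 7.36 and 8.34 on day 4, and 9.08, 9.31 and 8.75 on day 7. All arrays of days 0, 1 and 2 were dim, and on day 4 replicate 1 was still dim while replicates 2 and 3 were not. The day 4 rise over day 0 was 3.56 ± 0.70, or 11.8-fold (limma adjusted p = 0.00141), and the day 7 rise was 5.95 ± 0.70, or 61.7-fold (adjusted p = 1.76e-05). Since day 0 was dim, these folds depend on a level near background. With each array's dim values set to its lower quartile, the day 4 rise was 2.11, or 4.31-fold, and the day 7 rise 4.43, or 21.5-fold. Without day 4 replicate 1 the day 4 rise was 4.75, or 26.9-fold. The step from day 2 to day 4, 2.92 ± 0.70, was called (adjusted p = 0.0316) but not with that floor (2.18, adjusted p = 0.113). It was also lost without day 2 replicate 1, 2 or 3 or day 4 replicate 2 or 3 (2.09 to 3.20, adjusted p = 0.0563 to 0.123).

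The 2 cross-linking enzymes were far apart in time. LOX, the founding lysyl oxidase, read 4.57, 4.88 and 4.85 on day 0, 10.03, 9.24 and 8.46 on day 1, 11.93, 11.11 and 10.33 on day 2, 12.15, 9.96 and 10.55 on day 4, and 12.72, 11.67 and 11.08 on day 7. Each day 1 array was above each day 0 array, and replicate 1 was the highest on all 4 cultured days, by 1.18 to 1.90 over the mean of replicates 2 and 3. The day 1 rise was 4.47 ± 0.58, or 22.2-fold (limma adjusted p = 6.98e-05), and the day 7 rise 7.05 ± 0.58, a factor of 133 (adjusted p = 5.38e-07). The day 0 signal was near the dim limit, and dim in replicate 1, so these folds are measured against a level near background. From day 1 to day 2 the step was 1.88 ± 0.58 (adjusted p = 0.077), which was called with replicate number as a block (adjusted p = 0.00731), with replicates 2 and 3 alone (adjusted p = 0.0039) and without day 4 replicate 1 (adjusted p = 0.0325). With replicates 2 and 3 alone the rise over day 0 was 3.98 on day 1 and 6.50 on day 7.

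LOXL4, a lysyl oxidase-like enzyme of the same family, read 7.71, 8.44 and 8.31 on day 0, 7.40, 7.46 and 7.34 on day 1, 6.67, 6.96 and 6.91 on day 2, 9.17, 9.23 and 9.17 on day 4, and 10.50, 11.22 and 10.38 on day 7. It was thus lowest on day 2, with no overlap of any 2 days. The day 1 difference of -0.75 ± 0.22 was under the minimum change (limma adjusted p = 0.0204), and day 2 fell by 1.31 ± 0.22 against day 0 (adjusted p = 4.63e-04). LOXL4 then rose by 2.35 ± 0.22 from day 2 to day 4 (adjusted p = 5.54e-05) and by 1.51 ± 0.22 from day 4 to day 7 (adjusted p = 0.0208). Against day 0, day 7 was 2.55 ± 0.22 higher, or 5.85-fold (adjusted p = 7.96e-07). The day 4 rise of 1.04 ± 0.22 was close to the minimum, and under it after a second quantile normalization (0.89) or cyclic loess (0.90), without day 0 replicate 1 (0.82) and with replicates 2 and 3 alone (0.83). The step from day 4 to day 7 was not called without day 4 replicate 1, 2 or 3 or day 7 replicate 2 (adjusted p = 0.0644 to 0.102).

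By the day of the first higher call, THBS1, FN1 and LOX came on day 1, SPARC and DCN on day 2, LUM and LOXL4 on day 4, and COL1A2 and COL11A1 on day 7. Roles did not map onto single days. The provisional matrix genes were both first called on day 1, and both member collagens that rose were first called on day 7. This does not hold for all collagens, since COL5A1 and COL5A2, which are not members, rose earlier (below). For the small proteoglycans these days were 2 and 4, and for the cross-linking enzymes 1 and 4. These are days of passing a threshold, so a later day in one gene does not by itself show a difference from another.

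A second description of order used the midpoint day, the time at which the line joining the day means, on the log2 scale, first crossed the middle between day 0 and the highest later day. It was 0.54 for THBS1, 0.79 for LOX, 1.16 for FN1, 1.41 for SPARC, 1.94 for DCN, 3.37 for COL11A1, 3.60 for LUM, 4.47 for LOXL4 and 4.92 for COL1A2. Leaving out 1 array at a time moved it by little for the early genes, to 0.51 to 0.55 for THBS1 and 0.72 to 0.86 for LOX. The ranges were wide for the later ones, 1.76 to 2.34 for DCN, 2.62 to 4.67 for COL11A1, 3.14 to 4.23 for LUM and 4.52 to 5.25 for COL1A2. The range of COL11A1 overlapped those of LUM, LOXL4 and COL1A2, and that of LOXL4 overlapped that of COL1A2, so the places of these neighbours are not set. The ranges of THBS1, LOX, FN1, SPARC and DCN did not overlap with those of their neighbours, for the probe sets used. These ranges are not confidence intervals. The jackknife SE of the midpoint day was 0.13 for FN1, 0.07 for SPARC, 0.43 for DCN, 1.67 for COL11A1, 0.79 for LUM and 0.36 for LOXL4. Beside these errors the gaps from FN1 to SPARC, SPARC to DCN, DCN to COL11A1 and LUM to LOXL4 are not large. The order within these pairs is thus not settled. The midpoints of THBS1 and LOX lie between day 0 and day 1, where no array was taken, and rest on interpolation. The 4 other THBS1 probe sets had midpoint days of 0.62, 0.81, 0.89 and 0.91, of which 3 come after that of LOX, and the second FN1 probe set, at 1.55, comes after SPARC, so the order of these early genes depends on the probe set. With replicates 2 and 3 alone the midpoint day of COL11A1 was 2.05, outside its range above, and it was 1.78 for DCN, 3.08 for LUM and 5.20 for COL1A2.

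**Figure D2:**
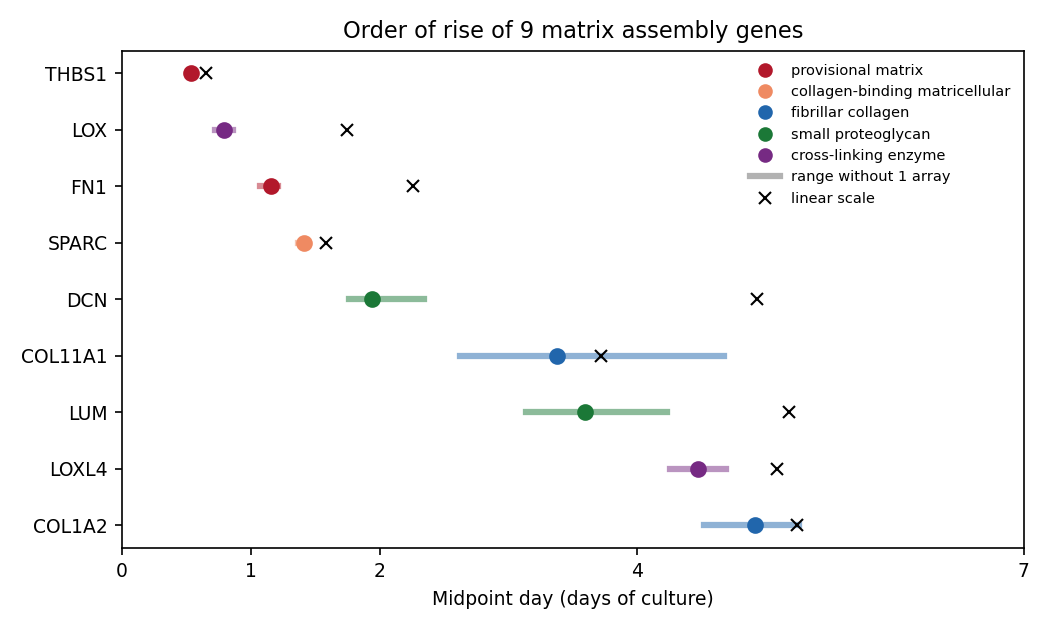
Midpoint day (horizontal axis, days of culture) of the 9 genes that were called higher, in order from THBS1 at the top to COL1A2 at the bottom. Dots are the values on the log2 scale, coloured by role, bars their range when 1 array was left out, and crosses the values on linear intensities. THBS1 was the earliest and COL1A2 the latest on both scales, while DCN moved to 4.93 on the linear scale.

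Part of this order depends on the scale. On linear intensities the midpoint day was 0.65 for THBS1, 1.59 for SPARC, 1.75 for LOX, 2.26 for FN1, 3.72 for COL11A1, 4.93 for DCN, 5.08 for LOXL4, 5.17 for LUM and 5.24 for COL1A2. SPARC then came before LOX and FN1, DCN came after COL11A1, and LUM came after LOXL4. On the log2 scale THBS1 had reached 93.1% of its rise on day 1, LOX 63.4%, FN1 43.6%, SPARC 24.1% and DCN 9.25%. By day 2 these shares were 91.0% for THBS1, 90.1% for LOX, 84.6% for FN1, 86.9% for SPARC and 52.6% for DCN, while COL1A2 had reached 2.51% and LUM 10.7%. On day 4 COL1A2 was at 28.02% and LUM at 59.9%.

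Successive days place the same genes directly. Between day 1 and day 2, FN1, SPARC and DCN were called higher, which is 3 of 10 members, against 2.04% of all probe sets. LUM and LOXL4 were called higher between day 2 and day 4, 2 members against 2.00% of probe sets, and DCN was added without day 4 replicate 1. The count was 1 to 3 without 1 array. It was 1 without the dimmest 40% of probe sets, with the floor at the lower quartile, or with the probe sets of each gene averaged. LOXL4 alone was called higher between day 4 and day 7, 1 member against 0.0458% of probe sets. That count was 0 to 1 without 1 array and 2 with replicates 2 and 3 alone. On day 7 against day 1, which leaves day 0 out, 7 members were called higher, where 5.73% of probe sets were. They were FN1 (4.45), SPARC (1.69), COL1A2 (2.22), DCN (6.55), LUM (6.002), LOX (2.58) and LOXL4 (3.30), and not THBS1, COL3A1 or COL11A1.

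**Figure D3:**
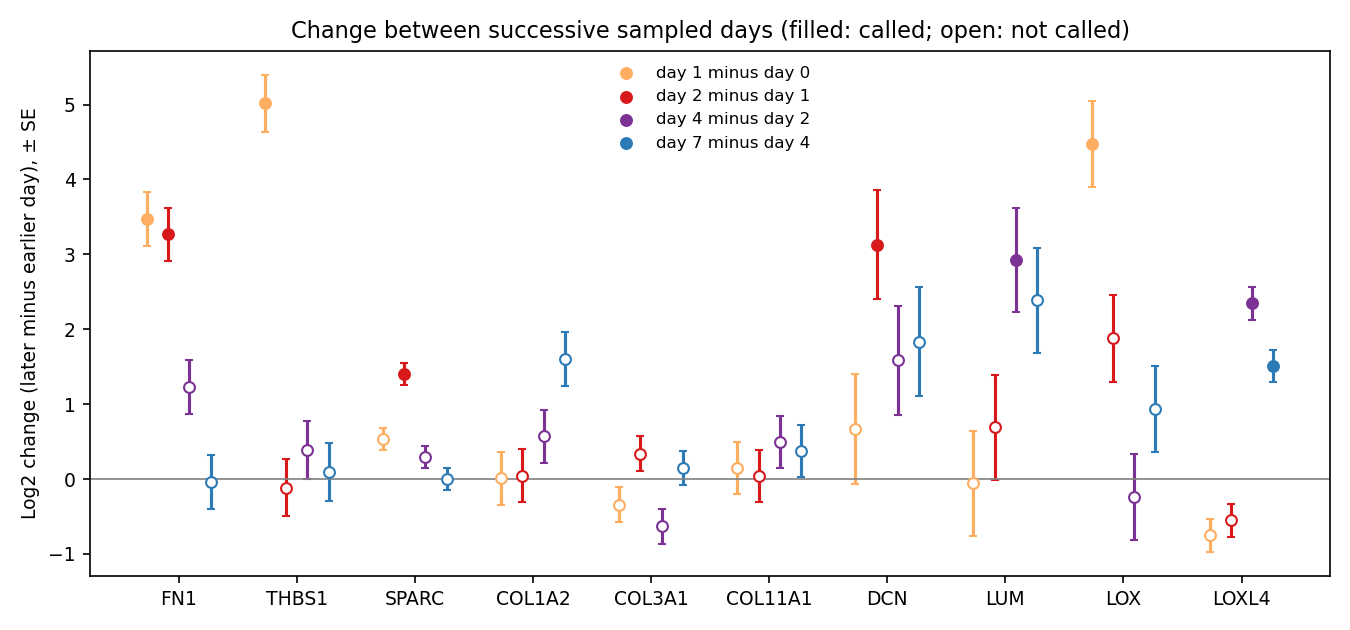
Change in log2 RMA intensity between successive sampled days (later minus earlier, ± SE from the limma fit, n = 3 arrays a day) for the 10 genes. Filled symbols were called. The largest step of THBS1 and LOX was the first, FN1 had steps of 3.47 and 3.27 in the first 2 intervals, LUM had steps of 2.92 and 2.39 in the last 2, and COL1A2 had its largest step, 1.60, between days 4 and 7.

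The probe sets not used for a gene often read lower. Of the 14 others, 3 were called higher on day 1 and 6 on day 7. A second FN1 probe set was 4.65 ± 0.42 higher on day 7 than on day 0 (limma adjusted p = 1.21e-06), with a midpoint day of 1.55, and a second COL1A2 probe set was 1.32 ± 0.39 higher (adjusted p = 0.0176), with a midpoint day of 5.02. The second probe sets of LOX (0.18), DCN (0.10), SPARC (0.32) and COL11A1 (0.05), both others of LOXL4 (-0.02 and -0.10) and the last 2 of FN1 (0.41 and 0.17) were not called on day 7. When the probe sets of each gene were averaged, day 7 stood above day 0 by 3.29 for FN1, 3.66 for DCN, 3.62 for LOX and 1.27 for SPARC, all still called. The LOXL4 change on day 7 was then 0.81, under the minimum, as were its day 2 change of -0.62 and its day 4 change of 0.22. SPARC was at 0.96 on day 2 and COL11A1 at 0.55 on day 7, and neither was called. The sequences that these probe sets read were not examined.

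Across the 15 arrays, the 45 pairs of members had correlations from -0.46 to 0.97 with a median of 0.54, as a description over arrays that share their days. FN1 and SPARC were the closest pair at 0.97, and SPARC with DCN, THBS1 with LOX and DCN with LUM each reached 0.92. COL1A2 and COL11A1 correlated at 0.87, and COL3A1 was negative with all 9 others (-0.46 to -0.34). Among 698 other named genes whose day means ranged over at least 2, ITGB3, the beta chain of a fibronectin and vitronectin receptor, was the most like FN1 (r = 0.993), ahead of GNG2 (0.988) and MSRB3 (0.985). ANXA2, PHLDA2 and ANXA5 followed THBS1 most closely (0.981, 0.979 and 0.977), and SLA-6, NUAK1 and ITGB3 followed SPARC (0.983, 0.983 and 0.974).

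DCN was most like AEBP1, THBS2 and ISLR (0.981, 0.974 and 0.973), and LUM most like MGP, THY1 and PKDCC (0.968, 0.954 and 0.948). For COL1A2 the nearest were FABP4, CRYAB and DES (0.954, 0.937 and 0.926), for COL11A1 SERPINB2, PRELP and ANKRD1 (0.915, 0.908 and 0.867), and for LOXL4 TMEM158, TNNT1 and ENPP1 (0.922, 0.921 and 0.918). LOX was nearest to LOC574051, HACD4 and LGALS3 (0.976, 0.973 and 0.973). COL3A1 had no close match, with BTG2 at 0.766.

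Other genes of matrix assembly were taken from lists of 80, of which 39 were measured. The lists too were chosen with earlier results of these data known, so their counts are a description and not a test. On day 1, 5 of them were called higher (8 with replicate number as a block) and 3 lower, where 6.47% of all probe sets were called higher and 6.03% lower. On day 2 the counts were 13 higher and 2 lower (7.68% and 6.09% of probe sets). Day 4 had 18 higher and 2 lower (9.29% of probe sets higher and 6.59% lower), and day 7 had 20 higher and 3 lower (9.36% and 7.28%). The day 7 shares also apply to the groups below. Their median change on day 7 was 1.32. Of 8 fibronectin and collagen receptors, 6 were called higher on day 7. ITGA5 and ITGB3, chains of fibronectin-binding integrins, rose by 4.84 ± 0.26 and 5.54 ± 0.26 (limma adjusted p = 1.13e-08 and 4.28e-09), and by 2.25 and 2.38 on day 1. ITGA2, of a collagen-binding integrin, rose by 2.60 ± 0.58.

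Of 6 other collagens, 2 were called higher on day 7, both chains of type V collagen, which is incorporated into type I fibrils and limits their width. COL5A1 was 4.61 ± 0.21 higher on day 7, or 24.4-fold, and COL5A2 3.09 ± 0.58 higher, while COL5A3 differed by -0.26 ± 0.14 (limma adjusted p = 0.183). Both rises began before those of COL1A2 and COL11A1, and 2 of the 6 were already called higher on day 2. COL5A1 averaged 7.37 on day 0, 8.96 on day 2 and 11.49 on day 4, and COL5A2 averaged 5.81, 7.61 and 8.20. Of 4 other proteoglycans, BGN (biglycan) rose by 2.84 ± 0.38 and PRELP by 1.55 ± 0.47, and VCAN (versican, a large hyaluronan-binding proteoglycan of the follicle) fell by 1.36 ± 0.18. PRELP was not called without day 0 replicate 2 or 3 or day 7 replicate 1 (adjusted p = 0.0524 to 0.076). Of 3 other cross-linking enzymes, LOXL1 was called on day 7, at 2.51 ± 0.34, beside 0.82 ± 0.17 for PLOD1 and -0.29 ± 0.14 for PLOD3, which are lysyl hydroxylases. On day 4 PLOD1 was called too, at 1.005 ± 0.17.

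Among collagen processing and folding genes, PCOLCE2, which enhances the cleavage of procollagen by BMP1, was 6.61 ± 0.22 higher on day 7, or 97.6-fold (limma adjusted p = 2.05e-10), and 4.08 ± 0.22 higher on day 1. BMP1, the procollagen C-proteinase, fell by 2.44 ± 0.46. P4HA2, a prolyl hydroxylase subunit, fell by 1.50 ± 0.16 on day 1 and rose by 1.61 ± 0.16 on day 7, both against day 0, and FKBP10 (0.81 ± 0.17) and CRTAP (0.63 ± 0.11) stayed under the minimum change. Of 7 matricellular genes, 5 were called higher and 1 lower on day 7. SPP1 (osteopontin) stood 6.35 ± 0.69 above day 0, POSTN (periostin) 5.77 ± 0.57 and THBS2 4.33 ± 0.53. Of 5 elastic fibre genes, FBN1 (fibrillin 1) rose by 3.11 ± 0.55 and EFEMP2 by 2.37 ± 0.44, while MFAP2 differed by -1.13 ± 0.64 (adjusted p = 0.209). The day 0 means of SPP1, POSTN, THBS2, LOXL1 and ITGA2, 3.48 to 4.45, were in the dim range, so their changes are measured against a level near background.

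**Figure D4:**
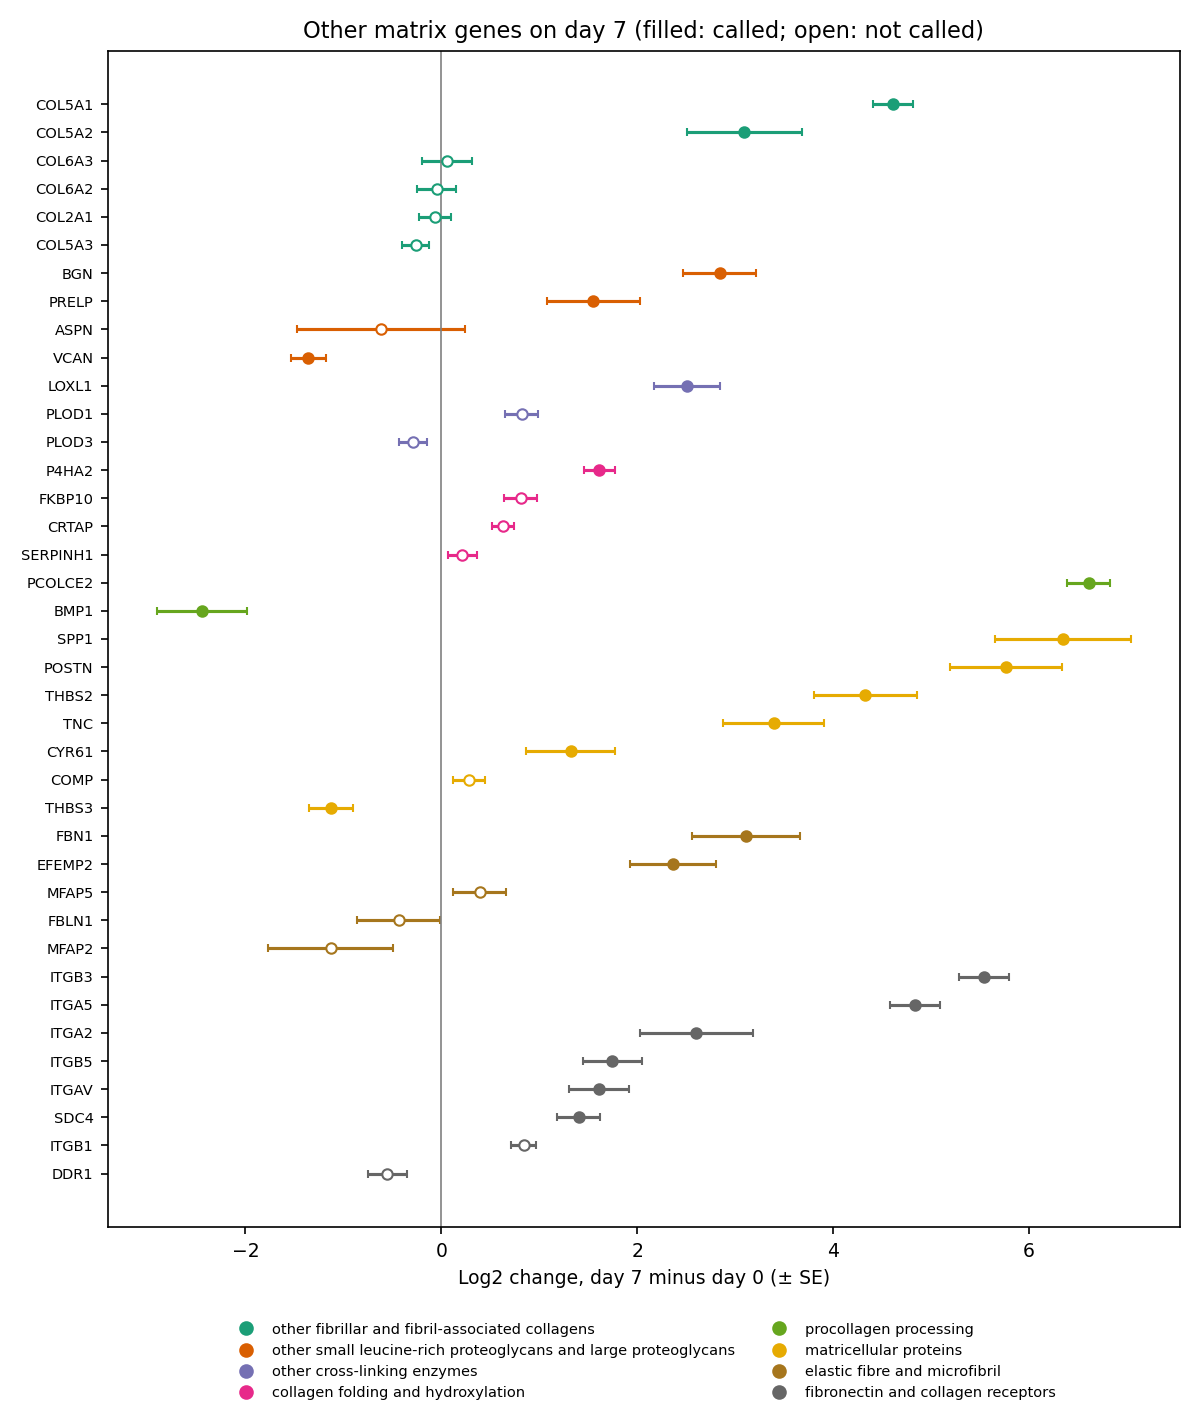
Change in log2 RMA intensity on day 7 minus day 0 (horizontal axis, ± SE from the limma fit, n = 3 arrays a day) of the 39 other matrix genes, coloured by group. Filled symbols were called. PCOLCE2, SPP1, POSTN, ITGB3, ITGA5 and COL5A1 lie furthest to the right, and BMP1 furthest to the left.

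Markers of cell types moved beside these genes. Of all probe sets, 9.36% were called higher and 7.28% lower on day 7 against day 0. Granulosa markers on day 7 against day 0 had 7 of 13 lower and 0 higher (by unadjusted p as well 0 higher), with a mean signal of 6.51 to 6.66 on day 7 arrays and 9.17 to 9.44 on day 0 arrays. HSD17B1, INHA and FST fell by 7.89, 7.21 and 5.11, and FOXL2 differed by 0.04 ± 0.14 (limma adjusted p = 0.873). Of 5 fibroblast and stroma markers 3 were higher, PDGFRB by 4.62 ± 0.36, THY1 by 4.08 ± 0.24 and TCF21 by 1.34 ± 0.30, and their summed linear intensity ran from 2027 to 3027 (day 7 arrays) and from 151 to 239 (day 0 arrays). DPT, which encodes dermatopontin, averaged 4.64 on day 7 and 4.93 on day 0. Of 4 smooth muscle and pericyte markers, RGS5, SMTN and DES were higher, with a summed intensity from 4110 to 5479 (day 7 arrays) and from 382 to 602 (day 0 arrays). Some of these markers were already high on the earlier days. On day 1 PDGFRB stood 3.58 ± 0.36 and RGS5 6.19 ± 0.71 above day 0 (adjusted p = 9.08e-06 and 2.74e-05), beside the day 1 rises of FN1, THBS1 and LOX, while THY1 and TCF21 were first called on day 4. Of 5 epithelial markers, 3 were higher and 1 lower on day 2, where 7.68% of all probe sets were higher and 6.09% lower. Among them EPCAM averaged 9.07 on day 2, against 4.38 on day 0, and KRT19 averaged 8.48, against 4.38. The part that cells other than granulosa cells have in the rise of the matrix genes was not tested.

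Of 4 theca markers, 1 was higher and 2 lower on day 2, where 7.68% of all probe sets were higher and 6.09% lower. NR2F2 averaged 10.18 on day 1 and 10.64 on day 2, above its day 0 arrays (9.35 to 9.71), and 9.45 on day 7. On day 7 against day 0, theca markers had 2 of 4 lower (INSL3 and LHCGR, of which granulosa cells also express LHCGR). CYP17A1 averaged 5.29 on day 7 and 4.99 on day 0. The macrophage and leukocyte list had 1 of 6 higher (CD14), with PTPRC, AIF1 and ITGAM dim on all 3 day 7 arrays and a summed intensity from 169 to 184 (day 7 arrays) and from 116 to 154 (day 0 arrays). In the endothelial list of 8, PECAM1 and ERG were higher and TIE1 lower, CDH5, KDR and TEK were dim on all arrays of both days, and the list summed to 440 to 644 (day 7 arrays) and 488 to 639 (day 0 arrays). None of 3 red cell markers was called (0 higher and 1 lower by unadjusted p), and of the epithelial markers KRT19 was higher and CDH1 lower on day 7.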

How the data were processed

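Gene expression in pig granulosa cells was measured on 15 Affymetrix porcine arrays, 3 for each of 5 days, as the labels state. Values were deposited by the authors on the log2 scale after RMA, per the submitters' processing notes, and its version is not named there. Of 24123 probe sets, 124 controls were set aside, leaving 23999, of which 10069 have 1 symbol in the platform annotation, 198 several and 13732 none. For arrays, their number limits the precision.

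A limma model (version 3.58.1, R 4.3.3) held a mean for each day over all 15 arrays and no replicate block. P values were adjusted by Benjamini-Hochberg over all 23999 probe sets, and a call needed an adjusted p under 0.05 and a log2 change of at least 1. The fit was tested on simulated data. The members and lists were chosen with earlier results of these data known. All members are named, with up to 3 genes of each matrix list by the size of the day 7 change and the 3 genes most correlated with each member.

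The labels do not say that replicate numbers pair arrays across days. Deviations of same-numbered arrays from their day means correlated above 0.1 for every number in 7 of 8 comparisons (0.115 to 0.727), and at 0.0609 to 0.333 for day 1 against day 0. Replicate 1 stands apart on every day, so this check cannot show that replicates 2 and 3 are paired. Where the block changed the call of a member, or a count in the report by over 1.5 times, it is given beside the value.

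Alternatives were a second quantile normalization, cyclic loess, leaving out the 40% dimmest probe sets, a floor at each array's lower quartile, a trended, robust eBayes prior, a replicate block, no minimum change, averaged probe sets of each gene, leaving out each array, and replicates 2 and 3 alone. No sequences or genome positions were used here.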

Additional observations from a re-analysis of the deposited data

How the results depend on the processing

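Calls of FN1, THBS1, LOX, DCN and LUM against day 0, and of COL1A2 on day 7, held under every alternative that could measure them; the dim filter left out LUM and COL11A1. Among counts of called members, day 1 lower was 1 instead of 0 with no minimum change, and day 2 lower 0 instead of 1 with the mean of probe sets. Day 4 against day 2, higher, was 1 instead of 2 with the dim filter, the floor or the mean of probe sets and 1 to 3 without 1 array. Day 7 against day 4, higher, was 2 instead of 1 with replicates 2 and 3 alone and 0 to 1 without 1 array. The replicate block changed no call of a member other than FN1 on day 4 against day 2 and LOX on day 2 against day 1, among changes from day 0 and steps of at least 1. The median midpoint day of 1.94 was 3.72 on the linear scale.

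Changes near 0 and never called turned sign. COL1A2 on day 1 was -0.046 after quantile normalization, -0.084 after cyclic loess and -0.093 to 0.15 without 1 array; on day 2 it was -0.016 and -0.023 under the same normalizations and -0.048 to 0.19. COL3A1 on day 2 was -0.15 to 0.26. LUM on day 1 was 0.027 after cyclic loess, 0.12 with replicates 2 and 3 and -0.17 to 0.045 without 1 array, and on day 2 -0.072 with the floor.

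For the other matrix genes, the replicate block gave 8 higher on day 1 (5 without it), 11 on day 2 against day 1 (7), 9 on day 4 against day 2 (4) and 1 lower on day 7 against day 1 (0). Replicates 2 and 3 alone gave 8, 13 and 8 higher in those first 3 comparisons, 1 lower in the second and 1 lower in the third (0 each), and 4 lower on day 2 (2). With the mean of probe sets 1 was lower on day 1 (3) and 1 on day 2. With no minimum change 6 were lower on day 1 and 2 on day 7 against day 1. Without 1 array the counts were 4 to 7 higher and 2 to 3 lower on day 1, 1 to 3 lower on day 2, 5 to 11 higher on day 2 against day 1, 3 to 6 higher on day 4 against day 2, and 0 to 1 lower on day 7 against day 1.

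Over all probe sets, no minimum change gave 3274 higher and 2746 lower on day 1, 3500 higher and 2748 lower on day 2, 4004 higher and 3356 lower on day 4, and 3932 higher and 3582 lower on day 7. It gave 868 higher and 593 lower for day 2 against day 1, 726 higher and 276 lower for day 4 against day 2, and 2435 higher and 2089 lower for day 7 against day 1. Replicates 2 and 3 gave 822 and 499 on day 2 against day 1, and 29 and 26 on day 7 against day 4. The replicate block gave 203 lower on day 4 against day 2, and 24 and 17 on day 7 against day 4, where the dim filter gave 2 higher. Without 1 array there were 120 to 403 lower on day 2 against day 1, 83 to 138 lower on day 4 against day 2, and 4 to 12 higher and 0 to 6 lower on day 7 against day 4.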
